A study of Mus musculus with 8 samples.

Results

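Collagen genes were examined in hearts under pressure overload, as the protein-coding rows of the deposited gene count table whose symbol is Col, a number, a and a chain number. The rule was met by 44 of the 56748 genes listed, and 39 of them had enough reads to be tested. They were grouped by the structure their protein forms into 11 fibrillar, 9 fibril-associated, 9 network, 8 microfibril and 4 transmembrane collagens. The other 3 genes, for types VII, XV and XVIII, belong to none of these types and were kept apart. RNA with a poly(A) tail came from whole hearts of male and female mice, named C56BL in the labels, that were 3 to 4 months old. All hearts, the controls included, had been loaded for 7 days by a constriction of the transverse aorta, and no unloaded heart was analysed here. The 4 control hearts (ACRE) carried the aMHC-Cre transgene, in which Cre is driven by the cardiomyocyte promoter of alpha myosin heavy chain. The other 4 (CMS7KO) are labelled as cardiomyocyte-specific knockouts of Smad7, made by excision with Cre under the same promoter. Smad7 is an inhibitor of signalling from the TGF-beta receptor, and the comparison asks what differs when cardiomyocytes lack it under load.

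Collagens are built from 3 alpha chains wound into a triple helix, in which glycine recurs at regular steps. Fibrillar collagens form the tensile fibres of the interstitium, fibril-associated collagens sit on those fibres, and network collagens form sheets such as basement membranes. Microfibril collagens form beaded filaments around cells, and transmembrane collagens are held in the cell membrane. In the heart, interstitial collagen is made mainly by fibroblasts, basement membrane collagen also by endothelial and muscle cells, and TGF-beta is a known inducer of fibrillar collagen genes.

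The 8 libraries held 12920435 to 17199600 counted reads, and 16.42% to 23.51% of them came from mitochondrial genes. ACRE 2 and ACRE 4 stood apart on the first principal component, at 63.6 and 76.41 against -47.98 to -11.34 for the other 6. All 12 cardiomyocyte markers were detected, and their summed level was highest in ACRE 4 and ACRE 2. Single markers were split, since Tnnt2, Tnni3, Tnnc1 and Myl2 were highest in other libraries. Smad7 stood at 23.9 to 34.6 CPM (counts scaled to library size) in ACRE and at 30.9 to 43.1 CPM in the libraries labelled CMS7KO (log2 fold change 0.30, SE 0.18, edgeR adjusted p = 0.415). Reads over the whole gene in whole tissue do not check a deletion in cardiomyocytes, so every direction by genotype rests on the labels. ACRE 3 and CMS7KO 3 are labelled female but had Xist at 0.314 and 0.569 CPM and Ddx3y, a Y-linked gene, at 89.1 and 84.2 CPM. ACRE 4 and CMS7KO 4, also labelled female, had Xist at 362.2 and 837.2 CPM and Ddx3y at 0.0 CPM in both.

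Promoter sequence is shown for chains of types I, III and VIII, whose ratios to each other are described further on, and for the head-to-head pair Col4a1 and Col4a2. The windows come from RefSeq on build GRCm38.p6, run from 250 bases before to 50 bases after the annotated start, and were found for 35 of the 44 genes, with none for Col1a1. Capitals mark 4 short motifs on either strand: CAGAC, part of the element bound by Smad3 and Smad4, CCAAT, bound by NF-Y, TATAAA, and GGGCGG, bound by Sp1.
Col1a2 (chr6:4505368-4505667, + strand): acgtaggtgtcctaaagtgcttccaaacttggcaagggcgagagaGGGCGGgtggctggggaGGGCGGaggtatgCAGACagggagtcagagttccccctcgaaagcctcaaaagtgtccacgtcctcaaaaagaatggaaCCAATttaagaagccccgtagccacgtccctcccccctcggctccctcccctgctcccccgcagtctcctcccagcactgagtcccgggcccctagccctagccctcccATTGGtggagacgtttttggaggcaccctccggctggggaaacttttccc
Col3a1 (chr1:45311288-45311587, + strand): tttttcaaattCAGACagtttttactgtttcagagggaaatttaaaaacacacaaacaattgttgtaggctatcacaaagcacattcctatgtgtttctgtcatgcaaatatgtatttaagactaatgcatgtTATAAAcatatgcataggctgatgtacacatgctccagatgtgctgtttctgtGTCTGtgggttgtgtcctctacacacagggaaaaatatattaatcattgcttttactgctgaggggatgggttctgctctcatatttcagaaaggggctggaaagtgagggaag
Col8a1 (chr16:57754688-57754987, - strand): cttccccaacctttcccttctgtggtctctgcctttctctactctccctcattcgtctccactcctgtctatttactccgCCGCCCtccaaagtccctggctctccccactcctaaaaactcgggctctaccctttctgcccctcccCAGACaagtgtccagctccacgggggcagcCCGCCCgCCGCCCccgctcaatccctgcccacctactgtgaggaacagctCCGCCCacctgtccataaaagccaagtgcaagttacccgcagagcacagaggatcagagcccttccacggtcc
Col8a2 (chr4:126286544-126286843, + strand): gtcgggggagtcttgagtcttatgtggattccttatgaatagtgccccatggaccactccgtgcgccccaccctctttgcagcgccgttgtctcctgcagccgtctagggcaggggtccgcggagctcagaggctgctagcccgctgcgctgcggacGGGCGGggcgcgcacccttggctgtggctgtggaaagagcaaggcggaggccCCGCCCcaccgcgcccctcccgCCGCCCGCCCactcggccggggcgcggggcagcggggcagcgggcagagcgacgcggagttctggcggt
Col4a1 (chr8:11312777-11313076, - strand): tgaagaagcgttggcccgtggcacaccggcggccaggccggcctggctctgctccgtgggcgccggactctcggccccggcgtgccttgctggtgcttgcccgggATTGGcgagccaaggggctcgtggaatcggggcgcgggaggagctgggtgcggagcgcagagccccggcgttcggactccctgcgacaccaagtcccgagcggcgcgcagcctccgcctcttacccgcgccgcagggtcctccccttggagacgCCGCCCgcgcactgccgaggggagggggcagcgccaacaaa
Col4a2 (chr8:11312555-11312854, + strand): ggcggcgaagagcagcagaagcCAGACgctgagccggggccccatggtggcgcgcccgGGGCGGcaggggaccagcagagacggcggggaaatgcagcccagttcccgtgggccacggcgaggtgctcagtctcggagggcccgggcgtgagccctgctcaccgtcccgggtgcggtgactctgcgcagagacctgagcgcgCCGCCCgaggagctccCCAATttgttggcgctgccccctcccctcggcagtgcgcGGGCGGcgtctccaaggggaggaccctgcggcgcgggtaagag
CAGAC stood in 52.6% of the 38 collagen windows and in 49.6% of all 32851 windows. CCAAT stood in 34.2% against 37.4%, TATAAA in 13.2% against 13.6%, and GGGCGG in 60.5% against 35.7%. The collagen windows were richer in G and C, with a median of 59.9% against 52.7%. The Col3a1 window held 2 CAGAC matches, 1 TATAAA and no GGGCGG, while those of Col8a1 and Col8a2 held 4 GGGCGG each. The Col8a1 window held 1 CAGAC and the Col8a2 window held 0. The windows of Col4a1 and Col4a2 share 78 bases, because the genes point away from each other and their annotated starts overlap by 22 bases. These matches describe letters only, and binding was not measured here.

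Collagen transcripts together took 0.4629% of counted reads in ACRE 2, 0.5599% in ACRE 1, 0.6766% in ACRE 3 and 0.3304% in ACRE 4. In the libraries labelled CMS7KO 1 to 4 they took 0.5818%, 1.164%, 0.8156% and 0.4795%. The 95% exact binomial interval was 0.3273% to 0.3335% for the lowest and 1.159% to 1.169% for the highest, and it covers counting error only. The groups overlapped, and CMS7KO 2 held the most collagen reads of any library. ACRE 4 and CMS7KO 4, the libraries with high Xist and no Ddx3y, took the smallest share of their label. The part of sex in this was not tested. Within the collagen reads, the fibrillar share was 37.7%, 42.3%, 37.4% and 39.3% in ACRE 1 to 4 and 42.8%, 49.8%, 42.9% and 42.4% in CMS7KO 1 to 4. The network share was 44.1%, 37.2%, 45.3% and 38.7% in ACRE and 37.8%, 32.6%, 38.6% and 32.1% in CMS7KO. The lowest fibrillar share in CMS7KO was thus just above the highest in ACRE, and network shares overlapped.

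Levels between genes were compared per kilobase of the gene length given in the deposited table. How these lengths were made is not stated, and the order below depends on them. By this measure the most abundant collagen was Col4a1, at a mean of 159.1 CPM per kilobase over the 8 libraries, followed by its partner Col4a2 at 130.3. Both chains form the type IV network of most basement membranes, including those around vessels and cardiomyocytes. Col3a1 (107.8) and Col1a1 (84.2), the main chains of cardiac interstitial fibres, came next, then Col6a1 (64.4), Col15a1 (47.1), Col1a2 (46.6) and Col6a2 (34.4). Ranges of these neighbours overlapped across libraries, so their order is that of the means over all libraries. Within the groups Col15a1 was above Col1a2 in ACRE (41.9 and 35.4 CPM per kilobase) and below it in CMS7KO (52.3 and 57.8). The length used was 12426 bases for Col1a2, 6563 for Col1a1 and 6349 for Col15a1. In CPM without length, mean Col1a2 was above Col15a1 in ACRE (439.4 and 266.1) and in CMS7KO (718.7 and 331.8). Mean Col3a1 was then above Col4a2 in ACRE (872.2 and 816.2 CPM) and in CMS7KO (1243.0 and 908.7 CPM). At the other end, Col9a1 had at most 1 read in any library, Col10a1 at most 5, Col19a1 at most 6, Col6a4 at most 9 and Col2a1 at most 11. These 5 genes did not pass the filter on low counts and were not tested. Col6a4 had 1, 0, 0 and 0 reads in ACRE and 9, 2, 7 and 1 in CMS7KO, and a count of 0 allows up to 3 reads.

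**Figure D1:**
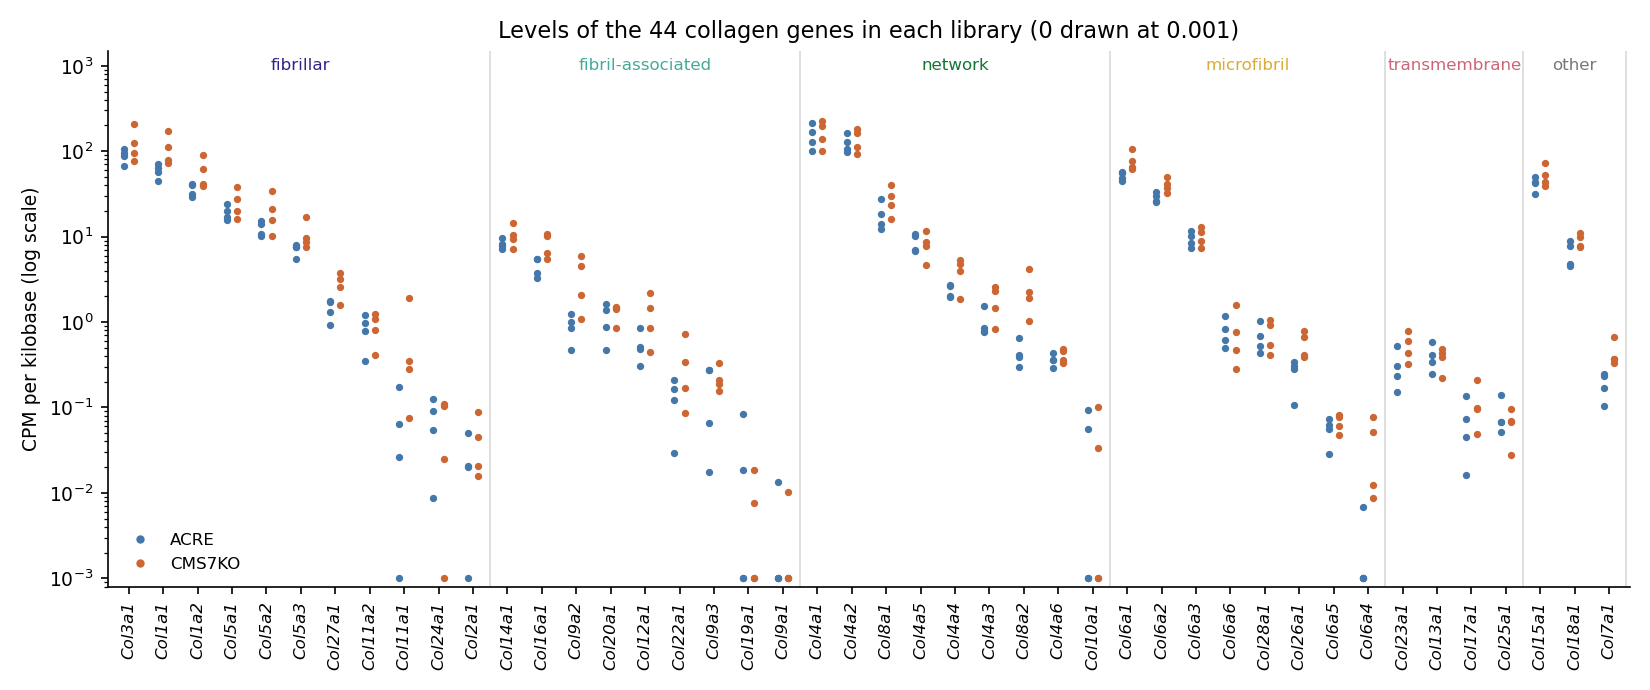
Level of each of the 44 collagen genes in CPM per kilobase on a log axis, with 1 point per library, ACRE in blue and CMS7KO in orange, ordered within each type by the mean. Means run from 159.1 for Col4a1 and 107.8 for Col3a1 down to 0.00293 for Col9a1.

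No collagen passed an adjusted p of 0.05 in edgeR's quasi-likelihood test: 0 of 39 were called higher and 0 lower, where 0.0179% of all 16780 genes tested were called higher and 0.0179% lower. At an unadjusted p under 0.05 there were 14 collagens higher and 0 lower, against 7.12% higher and 8.2% lower among all genes. The fitted difference was above 0 for 34 of the 39, against 49.4% of all genes, and the median log2 fold change was 0.49 against -0.01. This did not turn with scaling, at 34 of 39 with relative log expression size factors and with mitochondrial genes left out. For 6 collagens every library labelled CMS7KO lay above every ACRE library, and for 0 below, against 5.41% and 4.18% of all genes. DESeq2 called 2 collagens higher, Col8a2 and Col9a2, with 1.66% of all genes called higher by that tool. Without the low-count filter edgeR called 12 of 44 higher, with 1.4% of all genes called higher. The 12 held Col1a1, Col8a2 and Col9a2, but also Col11a1, with 468 of its 642 reads in CMS7KO 2. In bulk tissue, more cells of a type and more RNA per cell cannot be told apart.

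CMS7KO 2 was the highest library for 26 of the 39 genes, against 14.9% of all genes. CMS7KO 4 was the lowest of its label for 20 of the 39, against 4593 of all 16780 genes. The count of 14 was 6 of 41 without CMS7KO 2 (4.42% of all genes), 6 of 40 without CMS7KO 3 (4.9%) and 9 of 41 without ACRE 1 (8.86%). It was 12 of 41 without ACRE 4 (4.83%), 14 of 41 without ACRE 2 (5.71%), 16 of 41 without ACRE 3 (8.4%), 16 of 40 without CMS7KO 4 (5.42%) and 18 of 40 without CMS7KO 1 (5.88%). Without ACRE 2 and ACRE 4 it was 7 of 41 (6.55%), and without ACRE 3 and CMS7KO 3 it was 8 of 40 (5.94%). Of the 34 fitted differences above 0, 20 were smaller by over 1.5 times without CMS7KO 2. Among them Col5a1 stood at 0.14, Col14a1 at 0.07, Col15a1 at 0.09, Col1a2 at 0.40 and Col6a1 at 0.38, each on the log2 scale. The median log2 fold change was 0.36 without CMS7KO 2 and 0.46 without ACRE 2 and ACRE 4. The count of 6 without overlap was 6 without CMS7KO 2, where 6.66% of all genes did not overlap in that direction. It was 12 without CMS7KO 4 (8.09% of all genes), 6 without ACRE 1 (8.8%) and 10 without ACRE 2 and ACRE 4 (12.4%). With fewer libraries a gene separates more easily, and the part of this in the counts was not tested. Within the sex labels, with 2 libraries a group, the medians were 0.70 in male-labelled and 0.44 in female-labelled libraries. The female-labelled ones include ACRE 3 and CMS7KO 3, which had Ddx3y, so these values do not compare the sexes. A difference between the sexes was not tested.

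**Figure D2:**
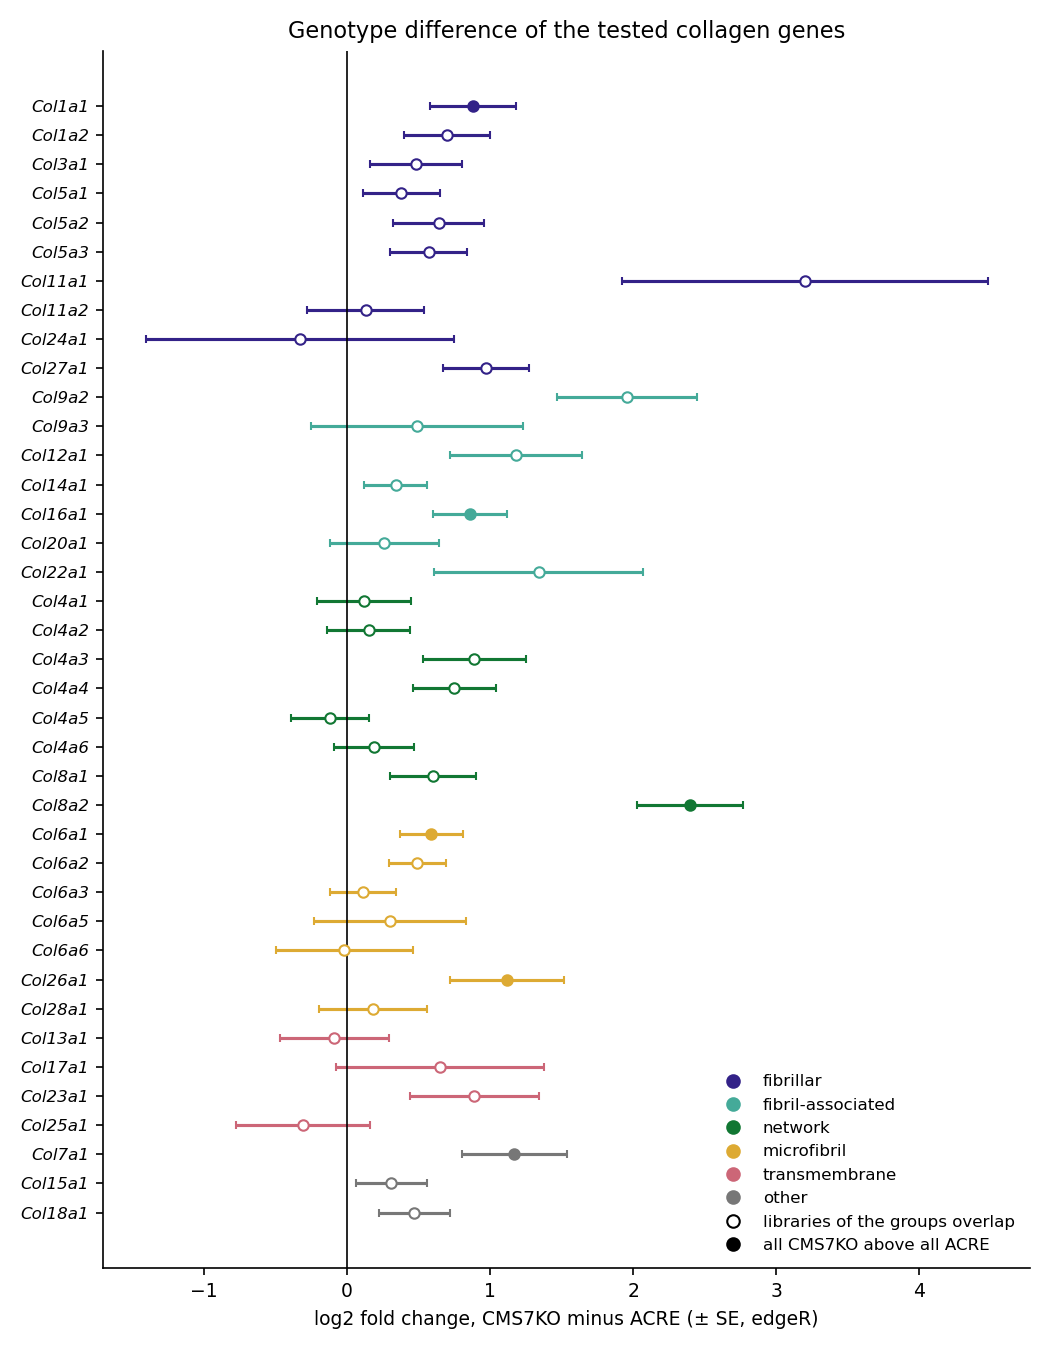
Log2 fold change of the 39 tested collagens, CMS7KO minus ACRE, with bars of ± 1 SE from edgeR, coloured by type. Filled points mark the 6 genes whose 4 CMS7KO libraries all lay above the 4 ACRE libraries, and Col8a2 has the smallest p, with a log2 fold change of 2.40.

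Among fibrillar collagens 9 of 10 tested genes had a fitted difference above 0 and 1 below, with a median of 0.61. Col1a1 (ENSMUSG00000001506, chromosome 11, 94827050 to 94843868 by the table), which encodes the alpha-1 chain of type I collagen, stood at 371.4, 414.9, 465.4 and 293.9 CPM in ACRE 1 to 4. In CMS7KO 1 to 4 it stood at 524.3, 1140.5, 736.5 and 476.2 CPM, so the lowest CMS7KO library was just above the highest ACRE library. Its log2 fold change was 0.88 (SE 0.30, edgeR adjusted p = 0.284), with 1.06 in the male-labelled and 0.68 in the female-labelled libraries, and 0.57 without CMS7KO 2. Col1a2, the alpha-2 chain of the same protein, stood at 390.2, 509.3, 496.1 and 361.9 CPM in ACRE and 512.6, 1109.0, 772.7 and 480.1 CPM in CMS7KO (0.70, SE 0.30, adjusted p = 0.316), and its groups overlapped. Col3a1, whose type III chains are found in the finer and more compliant fibres, stood at 870.7, 931.7, 1034.0 and 652.1 CPM in ACRE and 932.1, 2061.0, 1226.0 and 753.6 CPM in CMS7KO. This difference was smaller (0.48, SE 0.32, adjusted p = 0.46), and without CMS7KO 2 it was 0.16.

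The chains of type V collagen, which start type I fibrils and limit their width, overlapped between groups. Col5a1 stood at 144.7, 205.5, 171.5 and 135.6 CPM in ACRE and 169.6, 322.3, 233.0 and 138.2 CPM in CMS7KO (0.38, SE 0.27, adjusted p = 0.484). Col5a2 and Col5a3 had log2 fold changes of 0.64 and 0.57. Col27a1, a chain known mainly from cartilage, stood at 22.7, 11.9, 22.3 and 17.2 CPM in ACRE and 20.4, 49.3, 33.7 and 41.2 CPM in CMS7KO. Of these, CMS7KO 1 lay within the ACRE range (0.97, SE 0.30, adjusted p = 0.259). Col11a1, which nucleates fibrils in cartilage, was at 0, 0.335, 0.816 and 2.22 CPM in ACRE and 3.55, 24.3, 4.49 and 0.971 CPM in CMS7KO (3.20, SE 1.28, adjusted p = 0.312). Its mean in CMS7KO rests on CMS7KO 2, with 468 of the reads. Col11a2 stood at 5.68 ± 2.48 and 6.10 ± 2.49 CPM (SD, n = 4 each) and Col24a1 under 1 CPM in every library.

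All 7 tested fibril-associated collagens had a fitted difference above 0, with a median of 0.86. Col9a2 (ENSMUSG00000028626, chromosome 4, 120896582 to 120912519), a chain of the type IX collagen that coats cartilage fibrils, had the second smallest p of the family. It stood at 3.10, 3.89, 2.64 and 1.45 CPM in ACRE and 6.45, 18.6, 14.2 and 3.36 CPM in CMS7KO (1.96, SE 0.49, edgeR adjusted p = 0.205, DESeq2 adjusted p = 0.00751). CMS7KO 4 lay within the ACRE range. Col9a3, another type IX chain, stood at 0.0671 to 1.06 CPM in ACRE and 0.598 to 1.26 CPM in CMS7KO, and it overlaps Tcfl5 on the other strand. The 5 chondrocyte markers that could be tested had a median log2 fold change of 0.30 with 0 called, and Matn1, Matn3 and Hapln1 were too low to test. Their part in the Col9a2 difference was not tested.

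Col16a1 (chromosome 4, 129941633 to 129993076), which links fibrils to cells and other matrix, did not overlap between the groups. It stood at 36.7, 25.5, 36.8 and 22.2 CPM in ACRE and 43.8, 71.9, 67.99 and 37.4 CPM in CMS7KO (0.86, SE 0.26, edgeR adjusted p = 0.258). Its fold change was 0.88 and 0.84 within the male and female labels. Col14a1, a regulator of fibril diameter, stood at 50.8, 56.8, 55.1 and 67.8 CPM in ACRE and 50.3, 102.3, 73.99 and 65.4 CPM in CMS7KO, with overlap (0.34, SE 0.22, adjusted p = 0.452). Col12a1, its relative in load-bearing tissues, stood at 8.19 ± 3.42 against 18.9 ± 11.6 CPM (SD, n = 4 each; 1.18, SE 0.46, adjusted p = 0.307). Col20a1 stood at 7.08, 4.49, 8.35 and 2.41 CPM in ACRE and 4.42, 7.78, 7.58 and 7.25 CPM in CMS7KO. It overlaps 9230112E08Rik on the same strand, which had 916 reads in all against 774, so reads of the pair may be split uncertainly. Col22a1, a collagen of the myotendinous junction, was at 1.21 ± 0.709 against 3.03 ± 2.57 CPM.

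Among network collagens 7 of 8 tested genes had a fitted difference above 0, with a median of 0.39. Col8a2 (ENSMUSG00000056174, chromosome 4, 126180586 to 126208123), a short chain of type VIII collagen known from vessel walls and Descemet's membrane, had the smallest p of the family. It stood at 1.87, 2.95, 1.32 and 1.74 CPM in ACRE and 8.69, 18.6, 10.05 and 4.63 CPM in CMS7KO, from 18 to 44 reads per ACRE library and 62 to 359 reads per CMS7KO library. Every CMS7KO library was above every ACRE library (5.27-fold, log2 fold change 2.40, SE 0.37, edgeR adjusted p = 0.106). Without ACRE 2 and ACRE 4 it passed the threshold (2.68, adjusted p = 0.0357, where 0.481% of all genes were called higher), and it also did so with DESeq2 (2.39, adjusted p = 8.96e-07). Within the male and female labels it was 2.49 and 2.27, and leaving out single libraries gave 2.09 to 2.58. Its partner Col8a1 stood at 108.9, 216.3, 145.1 and 97.2 CPM in ACRE and 184.8, 313.0, 235.6 and 127.4 CPM in CMS7KO, with overlap (0.60, SE 0.30, adjusted p = 0.365).

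The type IV genes form 3 pairs that lie head to head. Col4a1 stood at 1246.0, 954.8, 1593.0 and 751.6 CPM in ACRE and 1035.0, 1688.0, 1482.0 and 750.9 CPM in CMS7KO (0.12, SE 0.33, adjusted p = 0.883). Col4a2 stood at 856.3, 694.3, 1069.0 and 645.0 CPM in ACRE and 749.2, 1201.0, 1075.0 and 608.9 CPM in CMS7KO (0.15, SE 0.29, adjusted p = 0.812). These groups overlapped, and both fitted directions turned to -0.21 and -0.09 without ACRE 2 and ACRE 4. Col4a3 and Col4a4, 71 bases apart in the table, encode chains of the glomerular and other specialised basement membranes. Col4a3 stood at 7.61, 15.2, 8.42 and 7.92 CPM in ACRE and 14.6, 23.3, 25.5 and 8.15 CPM in CMS7KO (0.89, SE 0.36, adjusted p = 0.312). Col4a4 stood at 21.4, 29.1, 28.1 and 20.9 CPM in ACRE and 41.9, 50.7, 55.9 and 19.9 CPM in CMS7KO (0.75, SE 0.29, adjusted p = 0.307). In both genes CMS7KO 4 was at the ACRE level and the other CMS7KO libraries were above most or all of ACRE. Col4a5, whose chain joins those of Col4a3 and Col4a4 in one protein, stood at 46.1, 72.1, 47.4 and 68.3 CPM in ACRE and 51.6, 77.9, 58.1 and 31.1 CPM in CMS7KO (-0.12, SE 0.27, adjusted p = 0.843). Col4a6 stood at 2.88 ± 0.487 against 3.26 ± 0.624 CPM (SD, n = 4 each). Whether reads were counted by strand is unknown here, so reads in the 22 shared bases of Col4a1 and Col4a2 cannot be assigned.

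Microfibril collagens of type VI surround cardiomyocytes and fibroblasts, and mutations in them cause muscle disease. In the microfibril type 6 of 7 tested genes had a fitted difference above 0, with a median of 0.30. Col6a1 stood at 195.3, 248.4, 245.1 and 211.6 CPM in ACRE and 268.1, 460.8, 339.2 and 288.6 CPM in CMS7KO, without overlap (0.59, SE 0.22, edgeR adjusted p = 0.303). Col6a2 stood at 209.4, 277.5, 249.0 and 216.1 CPM in ACRE and 272.8, 415.7, 342.2 and 310.0 CPM in CMS7KO (0.49, SE 0.20, adjusted p = 0.312), where CMS7KO 1 lay just under ACRE 2. Col6a3, the large chain of the same protein, stood at 89.2, 140.5, 99.9 and 120.6 CPM in ACRE and 88.2, 137.2, 107.0 and 153.7 CPM in CMS7KO, with a difference of 0.11 (SE 0.23, adjusted p = 0.835). Col6a3 overlapped between groups, and whether it differs from the other chains was not tested. Col6a6 stood at 7.55, 4.49, 5.65 and 10.7 CPM in ACRE and 4.27, 6.95, 2.59 and 14.4 CPM in CMS7KO, and Col6a5 under 1 CPM in every library. Col26a1 was low and without overlap, at 0.869 to 2.76 CPM in ACRE and 3.19 to 6.38 CPM in CMS7KO (1.12, SE 0.40, adjusted p = 0.289). Col28a1, known from peripheral nerve, stood at 3.30 ± 1.30 against 3.58 ± 1.49 CPM (SD, n = 4 each).

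Transmembrane collagens were low, with 2 of 4 fitted differences above 0 and a median of 0.28, and none had an unadjusted p under 0.05. Col23a1 stood at 1.35, 0.872, 1.76 and 2.99 CPM in ACRE and 2.46, 4.46, 1.83 and 3.44 CPM in CMS7KO (0.89, SE 0.45, adjusted p = 0.365). Col13a1, a collagen of the neuromuscular junction, stood at 1.93, 1.61, 2.70 and 1.16 CPM in ACRE and 1.81, 1.04, 2.27 and 2.02 CPM in CMS7KO. Both overlapped between groups. Col17a1, a hemidesmosome protein of epithelia, stood at 0.819, 0.268, 0.440 and 0.0965 CPM in ACRE and 0.290, 0.571, 1.26 and 0.598 CPM in CMS7KO. Col25a1, found in brain and muscle, stood at 0.878, 0.671, 1.82 and 0.869 CPM in ACRE and 0.362, 0.882, 1.26 and 0.897 CPM in CMS7KO. With at most 20 and 29 reads in a library, differences in these genes (0.65, SE 0.73, and -0.31, SE 0.47) were not resolved at this depth.

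The genes outside these types had a median of 0.47, with 3 of 3 above 0. Col7a1, which forms the anchoring fibrils of skin, stood at 2.40, 1.74, 2.51 and 1.06 CPM in ACRE and 3.41, 3.79, 3.79 and 6.95 CPM in CMS7KO. The groups did not overlap (1.17, SE 0.37, edgeR adjusted p = 0.272). Col15a1, a collagen of the basement membrane zone of muscle and capillaries, stood at 272.2, 275.3, 318.6 and 198.3 CPM in ACRE and 250.2, 465.6, 335.8 and 275.4 CPM in CMS7KO (0.31, SE 0.25, adjusted p = 0.536). Col18a1, from which endostatin is cut, stood at 55.1, 31.6, 61.99 and 33.98 CPM in ACRE and 53.8, 68.9, 76.4 and 53.6 CPM in CMS7KO (0.47, SE 0.25, adjusted p = 0.381). Both overlapped between groups.

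**Figure D3:**
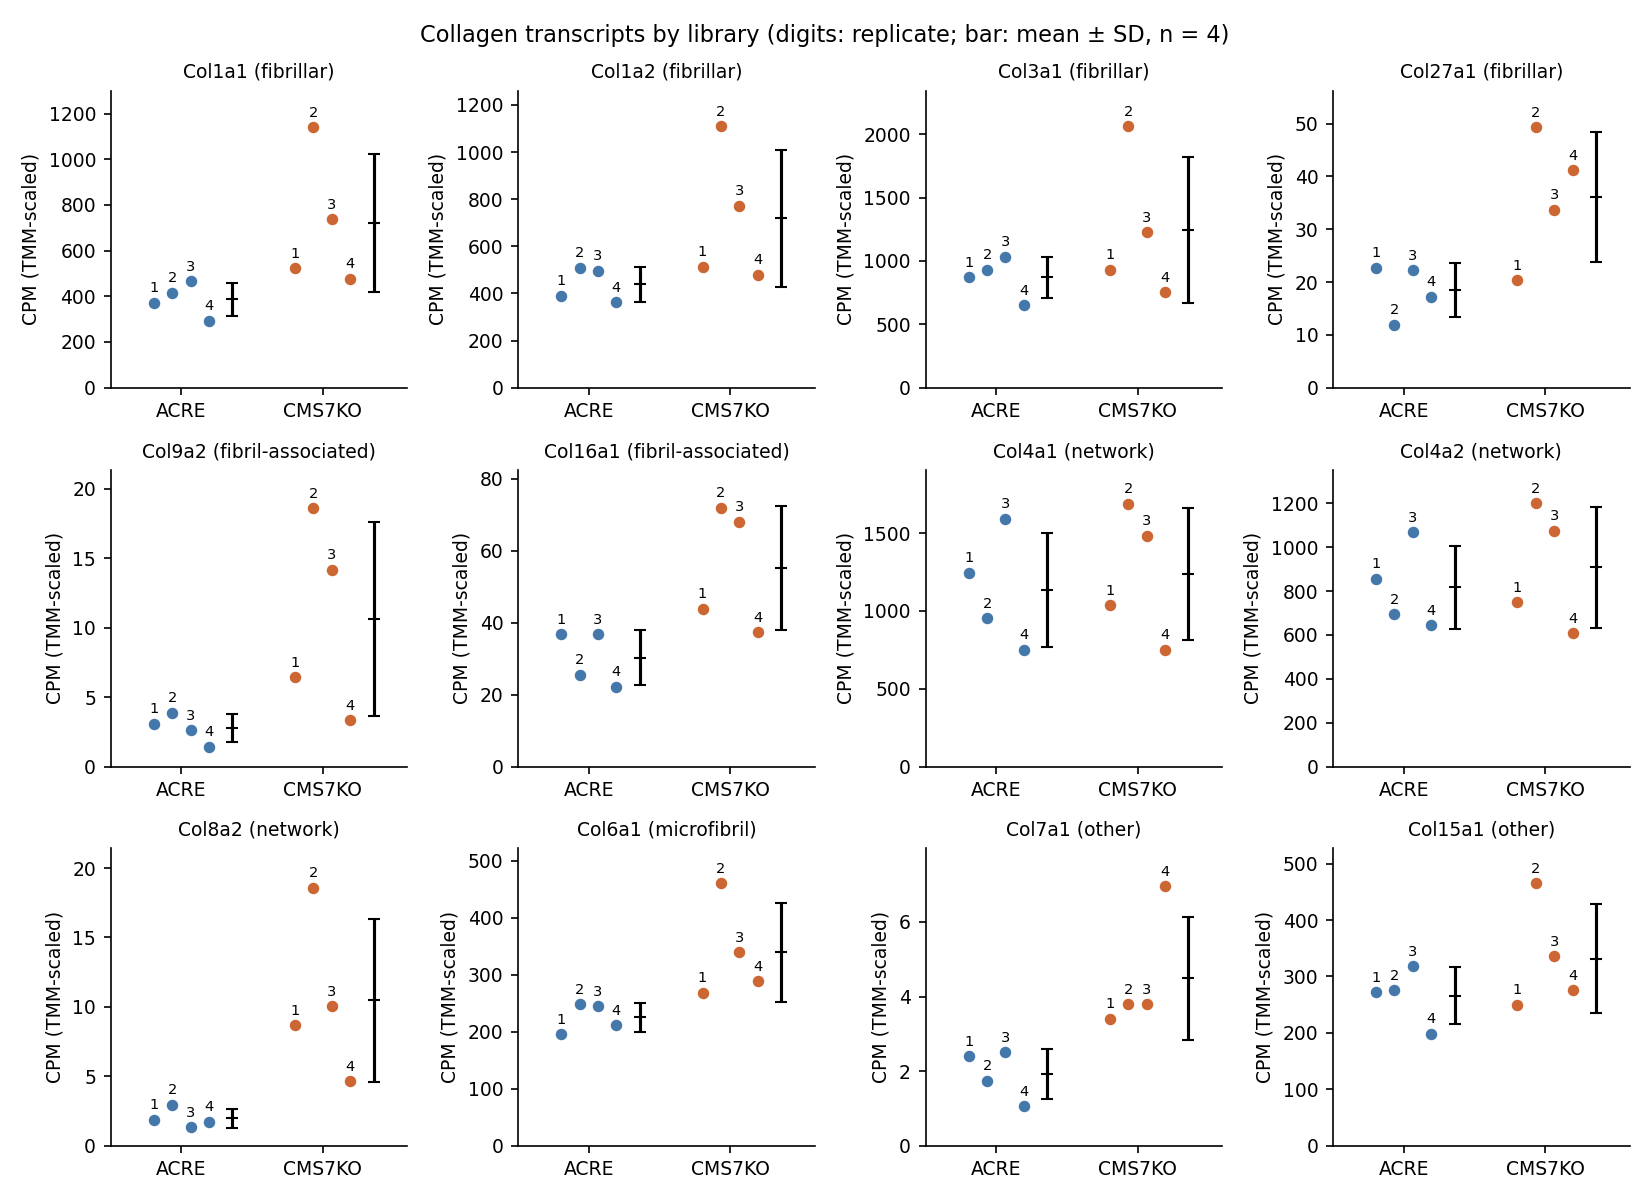
CPM of 12 collagens in each library, with the replicate number beside each point, ACRE in blue, CMS7KO in orange, and the mean ± SD of 4 libraries as a bar. CMS7KO 2 is the highest point for Col1a1 (1140.5 CPM) and Col3a1 (2061.0 CPM), while Col4a1 and Col4a2 overlap between groups.

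Ratios between chains were compared because a ratio within one library does not depend on how that library was scaled. The ratio of Col1a1 to Col3a1, each in CPM per kilobase, was 0.638, 0.666, 0.673 and 0.674 in ACRE 1 to 4 and 0.841, 0.828, 0.898 and 0.945 in CMS7KO 1 to 4. The groups were far apart relative to their spread, at 0.663 ± 0.0169 and 0.878 ± 0.0542 (SD, n = 4 each). CMS7KO 4, the lowest of its label for both genes, had the highest ratio. The log2 difference was 0.40 (two-sided exact permutation p = 0.0286, the smallest that 4 against 4 can give, 0.0571 adjusted over the 6 ratios), and leaving out single libraries gave 0.37 to 0.43. The ratio of Col8a1 to Col8a2 was 33.3, 42.02, 63.04 and 32.1 in ACRE and 12.2, 9.63, 13.4 and 15.8 in CMS7KO (log2 difference -1.71, exact permutation p = 0.0286, adjusted 0.0571). It was thus lower in all 4 CMS7KO libraries, with few Col8a2 reads behind the ACRE values.

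The ratio of Col1a1 to Col1a2 was 1.80, 1.54, 1.78 and 1.54 in ACRE and 1.94, 1.95, 1.80 and 1.88 in CMS7KO, with ACRE 2 and ACRE 4 the lowest libraries. Its log2 difference of 0.19 (exact permutation p = 0.0286, adjusted 0.0571) was 0.08 without ACRE 2 and ACRE 4 (exact permutation p = 0.133). No difference beyond the spread was seen for Col4a1 to Col4a2, at 1.22 ± 0.129 in ACRE and 1.20 ± 0.0696 in CMS7KO (SD, n = 4 each; exact permutation p = 0.886). Col5a1 to Col5a2 stood at 1.53 ± 0.069 and 1.32 ± 0.201 (exact permutation p = 0.143, adjusted 0.214, n = 4 each). Col6a1 to Col6a2 stood at 1.80 ± 0.0803 and 1.91 ± 0.143 (exact permutation p = 0.229, adjusted 0.274, n = 4 each). How the table's gene lengths were made is not stated, so a ratio compares libraries and not the number of chains.

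**Figure D4:**
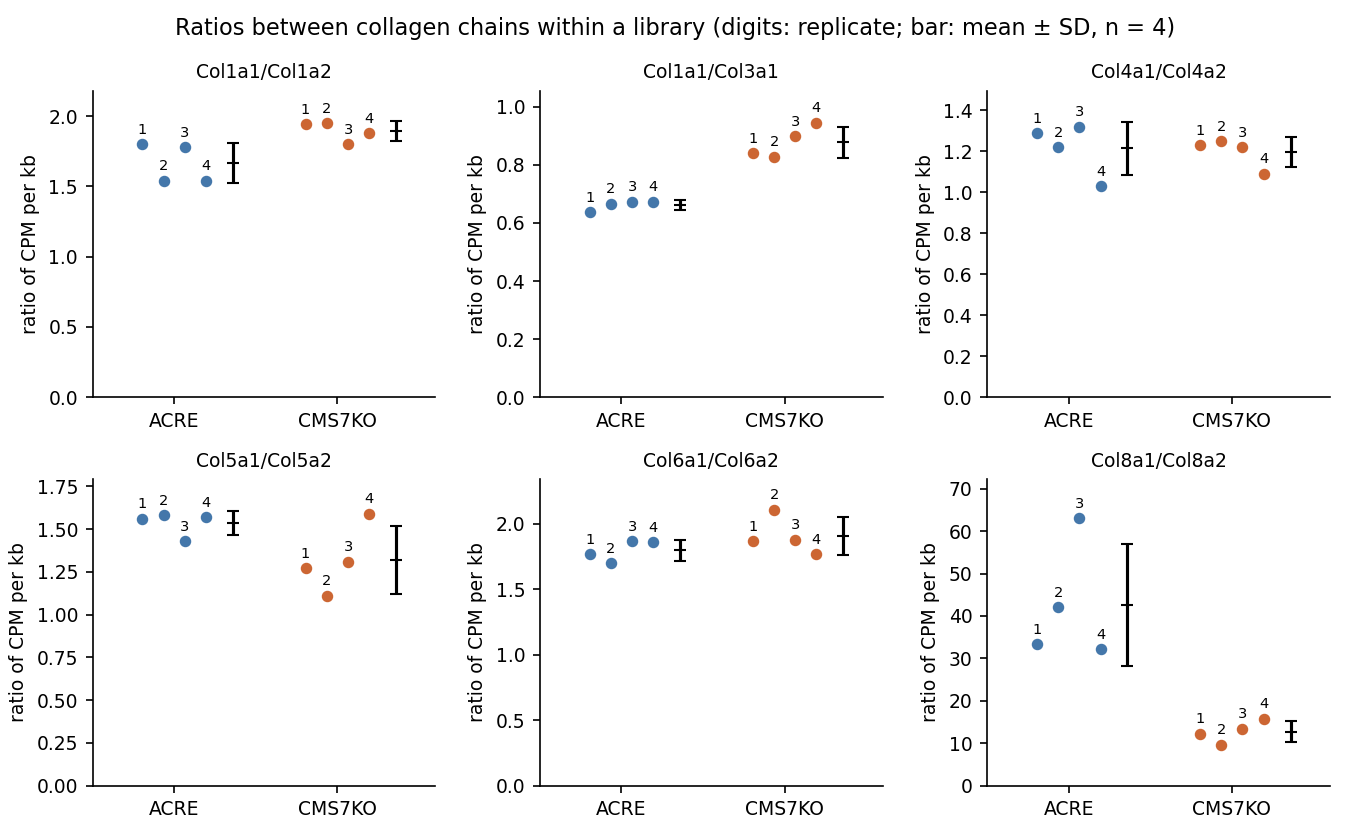
Ratio of CPM per kilobase between the 2 genes of 6 chain pairs in each library, axes from 0, with replicate numbers and the mean ± SD of 4 libraries. For Col1a1/Col3a1 the 4 ACRE libraries lie at 0.638 to 0.674 and the 4 CMS7KO libraries at 0.828 to 0.945, while Col4a1/Col4a2 overlaps.

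Markers of several cell types were summed in each library. The 12 activated fibroblast markers, among them Postn, Cilp and Thbs4, summed to 994, 1330, 1178 and 917 CPM in ACRE 1 to 4 and to 1597, 3233, 2016 and 1345 CPM in CMS7KO 1 to 4. All 12 had a fitted difference above 0, with a median of 1.27 and 0 called. The 10 fibroblast markers summed to 1875, 1918, 2044 and 2245 CPM in ACRE and 2462, 3407, 2682 and 2535 CPM in CMS7KO, with 9 of 10 above 0 and a median of 0.54. As for the collagens, CMS7KO 2 was the highest library of both lists, while ACRE 4 had the highest fibroblast sum of its label and the least collagen. Gsn, the largest fibroblast marker in ACRE, weighs most in that sum, at 948.8, 930.6, 891.4 and 1249.0 CPM in ACRE 1 to 4. The list was split: Gsn, Fbln1, Pdgfra and Scara5 were highest of ACRE in ACRE 4, and Pi16, Mfap5 and Medag were lowest there. Every marker of both lists was detected, and the part of fibroblast number in the collagen differences was not tested.

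The 12 cardiomyocyte markers ran the other way, at 59058, 88900, 49151 and 111305 CPM in ACRE and 55191, 36429, 47495 and 58643 CPM in CMS7KO, with 12 of 12 below 0 (median -0.56). ACRE 2 and ACRE 4 were the highest in this sum, in which Myh6 weighs most (18828, 32496, 14581 and 44054 CPM in ACRE 1 to 4). Myh6, Actc1, Atp2a2, Mybpc3, Ttn, Pln, Ryr2 and Ckm were highest in these 2 libraries. Tnnt2 (7442 CPM), Tnni3 (4150.3 CPM) and Tnnc1 (2931 CPM) were highest in ACRE 1, and Myl2 (7347 CPM) in CMS7KO 4. The groups overlapped, with ACRE 3 below CMS7KO 1 and CMS7KO 4, and the log2 fold changes of Tnnt2 (-0.02) and Tnnc1 (0.0 as rounded) were close to level. The 10 endothelial markers summed to 2704, 1331, 2944 and 1722 CPM in ACRE and 2088, 2625, 2465 and 2210 CPM in CMS7KO (median log2 fold change 0.11). In ACRE the order of the libraries by endothelial markers placed ACRE 3 and ACRE 1 above ACRE 4 and ACRE 2, as the levels of Col4a1 also did. In CMS7KO both placed CMS7KO 2 and CMS7KO 3 above CMS7KO 1 and CMS7KO 4. The lower libraries did not match: ACRE 4 had more marker signal than ACRE 2 but less Col4a1, and CMS7KO 4 stood likewise to CMS7KO 1. The 10 macrophage markers were at 473 to 831 CPM in ACRE and 955 to 1159 CPM in CMS7KO, highest in CMS7KO 4, which had the least collagen of its label (median 0.77). Smooth muscle and pericyte markers were at 1637 to 2080 and 1590 to 1947 CPM, and Schwann cell markers at 201 to 256 and 167 to 233 CPM, both overlapping, with medians of 0.04 and -0.06. Chondrocyte markers summed to at most 25.5 CPM, mesothelial and epicardial markers to at most 19.8 CPM and epithelial markers to at most 3.98 CPM in any library. Their medians were 0.30, 0.04 and 2.58, the last from 1 testable gene, Krt8. No marker of the 10 lists was called. The part of these cells in the collagen levels was not tested.

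**Figure D5:**
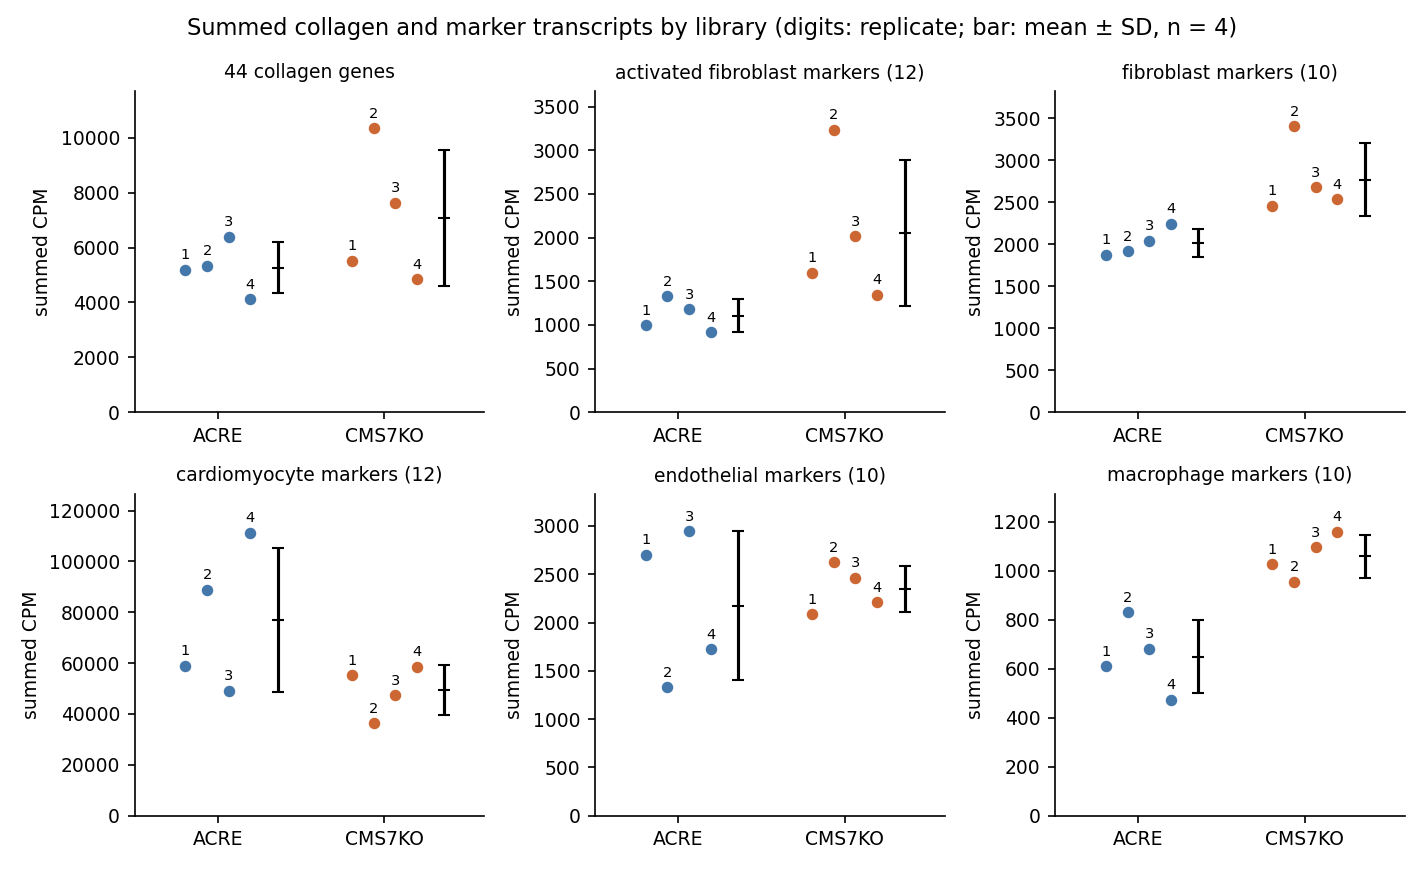
Summed CPM of the 44 collagens and of 5 marker lists in each library, with replicate numbers and the mean ± SD of 4 libraries, axes from 0. CMS7KO 2 is highest for collagens and both fibroblast lists and lowest for cardiomyocyte markers (36429 CPM).

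Of 48 other genes of the collagen pathway, from folding and hydroxylation to export, cleavage, crosslinking and binding, 0 were called in either direction, with 0.0179% of all genes called higher and 0.0179% lower. There were 8 higher and 2 lower at an unadjusted p under 0.05, against 7.12% and 8.2% of all genes, and the median log2 fold change was 0.21. The smallest p belonged to P3h3, a relative of the prolyl 3-hydroxylases, at a mean of 24.2 ± 8.29 CPM in ACRE against 55.5 ± 10.98 CPM in the other group (SD, n = 4 each; 1.19, SE 0.26, edgeR adjusted p = 0.187). Loxl1, a crosslinking amine oxidase, stood at 89.7 ± 11.2 and 172.8 ± 52.3 CPM (0.92, SE 0.22, adjusted p = 0.199). Pcolce, which speeds removal of the procollagen C-propeptide, was at 150.1 ± 32.6 and 244.1 ± 20.2 CPM (0.71, SE 0.20, adjusted p = 0.229). In these 3 genes the groups did not overlap, and DESeq2, which called 1.66% of all genes higher, called all 3. Of the 48 genes 4 lay above ACRE in every CMS7KO library and 1 below, against 5.41% and 4.18% of all genes. The other one above was Mrc2, a receptor for collagen uptake (0.62, SE 0.20, adjusted p = 0.271), and the one below was Tll2, a relative of the procollagen C-proteinase (-1.35, SE 0.44, adjusted p = 0.278). Fmod, a proteoglycan that binds type I fibrils, stood at 5.48 ± 2.13 and 38.7 ± 41.02 CPM, with overlap (2.65, SE 0.72, adjusted p = 0.222). The chaperone Serpinh1 stood at 299.5 ± 58.2 and 306.8 ± 16.9 CPM (0.04, SE 0.20, adjusted p = 0.946), and the prolyl 4-hydroxylase subunits P4ha1 and P4hb had log2 fold changes of -0.06 and -0.02. Itgb1, the beta chain of the collagen-binding integrins, stood at 524.4 ± 82.01 and 371.2 ± 35.3 CPM (-0.49, SE 0.20, adjusted p = 0.312).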

How the data were processed

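Poly(A) RNA of 8 hearts was sequenced, 4 labelled ACRE and 4 labelled CMS7KO, and the authors deposited 1 table of raw whole-number read counts per gene. Per the submitters' processing notes the tools were CASAVA, TopHat2 2.0, Cufflinks 2.1.1 and HTSeq 0.6.1, with mm10 and GRCm38.p6 named as builds. The strand setting and the annotation version were not given in the sources used here. Positions are printed as in the table, whose build is not named, and they differ from those of GRCm38.p6. Gene lengths are the authors' column in bases, whose making is likewise not given.

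Tests used edgeR 4.0.16, with limma 3.58.1 and DESeq2 1.42.0 as alternatives, under R 4.3.3. The filter filterByExpr on genotype and sex label kept 16780 of 56748 genes, and libraries were scaled by TMM (factors 0.8025 to 1.126). CPM use these scaled totals. The model held genotype and the sex label (5 residual degrees of freedom), genotype was tested by quasi-likelihood with robust dispersions in edgeR, and p values were adjusted by Benjamini-Hochberg over all genes at 0.05. SE is the log2 fold change over the square root of F. Ratios were tested by exact permutation over 70 assignments. Methods were tested on simulated data with less spread between libraries than here, where the common biological coefficient of variation was 30.3%. The simulation therefore does not give the power of the tests reported. Every pair of libraries differed by more than sampling noise (chi-square per degree of freedom at least 17.5). Depth was 12920435 to 17199600 reads. Binomial intervals cover counting error only, since no molecular identifiers are recorded. The labels call the samples independent and name no litters or batches.

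Members and lists were chosen with earlier results of these data known. Values in every library are given for up to 4 members per type with the highest level per kilobase, for members past the threshold and for the 6 smallest p. Others given per library (Col11a1, Col4a3, Col4a4 and the untested Col6a4) were chosen after their values were seen. From the pathway list, the 4 smallest p were named, and Serpinh1, P4ha1, P4hb, Itgb1, Mrc2 and Tll2 were added after their values were seen. Alternatives changed the scaling, filter, test, covariate and libraries, and used a replicate block.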

Additional observations from a re-analysis of the deposited data

Results flagged for a closer look

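Among 78 groups of 4 libraries, 1 for each of the 39 tested collagens in each genotype, 4 held a library whose gap to the nearest other exceeded Dixon's 95% critical value as a share of the group's range. Chance alone flags about 1 in 20 such groups. Col11a1 stood at 24.3 CPM in CMS7KO 2, with the others of its label at 0.971 to 4.49 CPM. Col20a1 was at 4.42 CPM in CMS7KO 1, below 7.25 to 7.78 CPM in the others. Col4a3 was at 15.2 CPM in ACRE 2, above 7.61 to 8.42 CPM in the others. Col7a1 was at 6.95 CPM in CMS7KO 4, above 3.41 to 3.79 CPM in the others.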

How the results depend on the processing

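The count of collagens called higher was 0 in the reported fit and 0 under the other settings run, except 12 without a low-count filter (where 1.4% of all genes were called higher), 2 with DESeq2 and 1 without ACRE 2 and ACRE 4, and leaving out 1 library gave 0 to 0. None was called lower under any setting run. Pathway genes called higher were 0 except 6 without the filter and 3 with DESeq2, with 0 to 0 when leaving out 1 library. Over all genes the 3 higher and 3 lower calls became 456 and 912 without the filter, 278 and 206 with DESeq2, 86 and 89 without ACRE 2 and ACRE 4, 0 and 1 without ACRE 3 and CMS7KO 3, 0 and 0 in male-labelled or female-labelled libraries alone, and 5 lower without the sex covariate. Leaving out 1 library gave 0 to 10 higher and 0 to 7 lower. The count of 6 separated collagens, examined this way after seeing the data, was 10 without ACRE 2 and ACRE 4 (12.4% of all genes) and 6 to 12 without 1 library (6.57% to 8.8% of all genes, against 5.41% with all 8). The causes of these changes were not tested.

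Equal replicate numbers did not pair the libraries, since deviations of same-numbered libraries correlated at -0.173, -0.187, 0.124 and 0.205 for numbers 1 to 4, and not every library correlated best with its own number. With the replicate block 1 gene was called higher over all genes, and 0 collagens. With each number present in both groups, the block cannot change the size of a ratio difference by arithmetic, so it does not check these sizes. The ratio differences thus stood at 0.19 (Col1a1/Col1a2), 0.40 (Col1a1/Col3a1) and -1.71 (Col8a1/Col8a2) under the block, where the smallest possible exact p is 0.125. Without ACRE 2 and ACRE 4, where it is 0.0667, they were 0.08, 0.42 and -1.87. Leaving out 1 library gave 0.15 to 0.23, 0.37 to 0.43 and -1.83 to -1.5, and for Col4a1/Col4a2 -0.09 to 0.02, for Col5a1/Col5a2 -0.32 to -0.15 and for Col6a1/Col6a2 0.03 to 0.12.

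Some uncalled fitted differences changed sign, over all 39 tested collagens, of which those outside the naming rule were added after seeing the data. Without ACRE 2 and ACRE 4 these were Col11a2 (-0.28), Col28a1 (-0.04), Col20a1 (-0.19), Col4a1 (-0.21), Col4a2 (-0.09), Col4a5 (0.19) and Col6a6 (0.05). In female-labelled libraries they were Col11a2 (-0.07), Col28a1 (-0.24), Col4a1 (-0.07), Col4a2 (-0.02), Col6a6 (0.06) and Col13a1 (0.14), and in male-labelled ones Col24a1 (1.69), Col4a5 (0.12), Col6a3 (-0.04) and Col17a1 (-0.34). Without ACRE 3 and CMS7KO 3 they were Col24a1 (0.22), Col6a6 (0.08) and Col13a1 (0.03). Leaving out 1 library gave -0.3 to 0.4 for Col11a2, -1.24 to 0.42 for Col24a1, -0.24 to 0.4 for Col28a1, -0.04 to 0.61 for Col20a1, -0.08 to 0.41 for Col4a1, -0.04 to 0.35 for Col4a2, -0.31 to 0.07 for Col4a5, -0.05 to 0.28 for Col6a3, -0.67 to 0.29 for Col6a6 and -0.34 to 0.11 for Col13a1. Depth limits the genes with at most 20 reads in any library, Col17a1, Col24a1, Col6a5 and Col9a3 among the tested ones.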
